A study of Mus musculus with 10 samples.

Results

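The genes described here are outputs of the circadian clock in mouse liver: the transcription factors Dbp, Tef, Hlf, Nfil3, Ciart, Bhlhe40 and Bhlhe41, the nocturnin gene Noct and the deubiquitinase gene Usp2. They were chosen by name, and all 9 were measured among 19935 genes. Total RNA came from livers of mice aged 12 weeks, 5 wild type (WT) and 5 lacking nucleomethylin (NML-KO), with 1 whole-transcript array for each liver. Nucleomethylin is a nucleolar protein encoded by Rrp8; the labels do not state how or in which cells the gene was disrupted, nor strain, sex or hour of dissection. The question is whether clock outputs differ when nucleomethylin is missing. Rrp8 was lower in all 5 NML-KO livers (6.65 to 7.19 on the log2 scale) than in any WT liver (7.65 to 7.90), so no array went against its genotype label; whether the probes lie in the disrupted part of the gene is unknown. Of 10 hepatocyte marker genes 9 were measured, and their summed intensity was 126400 to 139750 in WT and 131100 to 134060 in NML-KO livers.

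The clock is a loop in which BMAL1, encoded by Arntl, and CLOCK bind E-boxes and switch on genes whose products then shut them off. DBP, TEF and HLF carry the rhythm onward by activating genes with D-boxes, and NFIL3 represses the same sites. REV-ERB and ROR proteins act on Arntl and Nfil3 through another element, the RORE, so in liver Nfil3 and Arntl peak when Dbp is low. CIART (also called CHRONO), BHLHE40 (DEC1) and BHLHE41 (DEC2) repress BMAL1 and CLOCK. Nocturnin belongs to the deadenylase family, has been shown to remove a phosphate from NADP cofactors, and is strongly rhythmic in liver, as is USP2, which removes ubiquitin from proteins.

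Promoter sequences are shown because E-boxes, D-boxes and ROREs are the elements through which the clock acts on such genes. RefSeq promoters on GRCm38.p6, with 250 bases before and 50 after each start, were found for 8 of the 9 members (not for Bhlhe40). Both strands were searched for the E-box CACGTG, the D-box words TTATGTAA, TTATGCAA and TTACGTAA, the RORE core GTAGGTCA and the cyclic AMP response element (CRE) TGACGTCA; no matches overlapped. Of 32851 such promoters, 7.15% hold the E-box, 1.78% a D-box word, 0.621% the RORE core and 1.79% the CRE. Capitals mark the matches, and each stretch lies wholly before the start.
Ciart, chr3:95882252-95882359, minus strand: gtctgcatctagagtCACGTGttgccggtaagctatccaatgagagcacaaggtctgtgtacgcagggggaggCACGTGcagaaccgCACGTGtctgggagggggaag
Tef (first start), chr15:81802516-81802581, plus strand: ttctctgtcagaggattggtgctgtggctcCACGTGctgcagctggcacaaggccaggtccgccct
Tef (second start), chr15:81811246-81811311, plus strand: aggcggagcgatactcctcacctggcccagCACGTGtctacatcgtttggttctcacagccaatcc
Bhlhe41, chr6:145865538-145865603, minus strand: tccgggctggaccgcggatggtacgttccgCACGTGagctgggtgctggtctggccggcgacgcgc
Nfil3, chr13:52981040-52981081, minus strand: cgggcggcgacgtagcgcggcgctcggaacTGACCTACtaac
Hlf, chr11:90390918-90390956, minus strand: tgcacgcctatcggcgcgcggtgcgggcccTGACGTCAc

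Among these members, 3 held the E-box (Ciart, Tef and Bhlhe41), and Ciart held 3 copies, a number reached by 0.0883% of promoters. The RORE core was found in Nfil3 alone among the 8, on the strand opposite to the gene and from base -12 relative to the start, and the CRE in Hlf alone. A RefSeq promoter of Arntl also held the RORE core, from base 30 after its start. No D-box word lay in the promoter of any of the 8 members, and none of the 4 motifs lay in those of Dbp, Noct or Usp2. A match describes these letters in this window only.

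The livers fell into sets of unlike clock output that cut across genotype. Arntl was below 7 on the log2 scale in WT 1, WT 2 and NML-KO 1 to 3 (5.55 to 5.90), called Arntl-low livers here, and above it in WT 3 to 5, NML-KO 4 and NML-KO 5 (8.10 to 8.27), called Arntl-high. This split comes from measured values and is not a label of the study, so differences between the sets are described without a test. The sets of 7 of the 9 members did not overlap, 6 higher and Nfil3 lower in Arntl-low livers; sets of 12.2% of all genes did not overlap, and since clock values made the split nothing is read from that count.

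Of the D-box activators, Dbp had the widest difference of the 9 between sets. Its log2 intensities in WT 1 to 5 were 10.23, 9.87, 6.27, 6.58 and 6.20, and those in NML-KO 1 to 5 were 9.68, 9.71, 9.71, 6.60 and 6.47. The Arntl-low livers were thus 10.7-fold above the Arntl-high livers (3.41 on the log2 scale), and 3 of 19935 genes differed by more. Since a clock gene made the split, nothing is read from that rank. Tef, in the same order, was at 9.51, 9.06, 7.40, 7.49 and 7.71 in WT and 9.12, 9.11, 9.15, 7.40 and 7.60 in NML-KO livers. Its sets were 3.18-fold apart. Hlf, of the same family, ran from 8.13 to 8.60 in Arntl-low and from 7.84 to 8.18 in Arntl-high livers, so that its sets overlapped and its means were 1.21-fold apart.

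Nfil3, the repressor at D-boxes, was the single member that was lower in Arntl-low livers. It was at 7.07, 6.97, 8.53, 8.57 and 8.43 in WT 1 to 5 and at 6.59, 6.43, 6.94, 8.69 and 8.37 in NML-KO 1 to 5. The 5 livers with high Dbp were therefore the 5 with low Nfil3, by 3.30-fold on average, in the same direction as Arntl (5.35-fold).

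Among the repressors of BMAL1 and CLOCK, Ciart moved most. Its values in WT 1 to 5 were 7.82, 7.09, 5.19, 5.13 and 5.45, and in NML-KO 1 to 5 they were 7.78, 8.42, 7.63, 4.92 and 5.38. Its sets were 5.80-fold apart, and the second probe set of the gene separated them too, at 7.54 to 8.40 against 4.76 to 5.63; probe set numbers next to that second one belong to genes of chromosome 10, whereas those next to the first belong to chromosome 3. Bhlhe41 was dim, at 5.38 to 6.15 in Arntl-low and 4.90 to 5.04 in Arntl-high livers, where 21.3% of genes were dimmer on average; its sets were 1.80-fold apart. Bhlhe40 overlapped, with 8.41 to 8.96 against 7.88 to 8.67 and WT 4 highest of the Arntl-high livers.

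Noct and Usp2 also stood higher in every Arntl-low liver. Noct was at 9.04, 8.87, 6.65, 7.04 and 7.13 in WT 1 to 5 and at 9.52, 9.14, 8.37, 7.14 and 8.0 in NML-KO 1 to 5. The gap between the sets was small for Noct (0.36 on the log2 scale, against 3.08 for Dbp), because NML-KO 3 was the lowest Arntl-low liver and NML-KO 5 the highest Arntl-high liver. Usp2 was at 9.49, 8.95, 6.47, 7.15 and 6.59 in WT and 9.51, 9.18, 9.41, 6.44 and 7.33 in NML-KO livers, 5.70-fold apart between the sets. NML-KO 5 and WT 4 were the highest Arntl-high livers for Usp2.

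**Figure D1:**
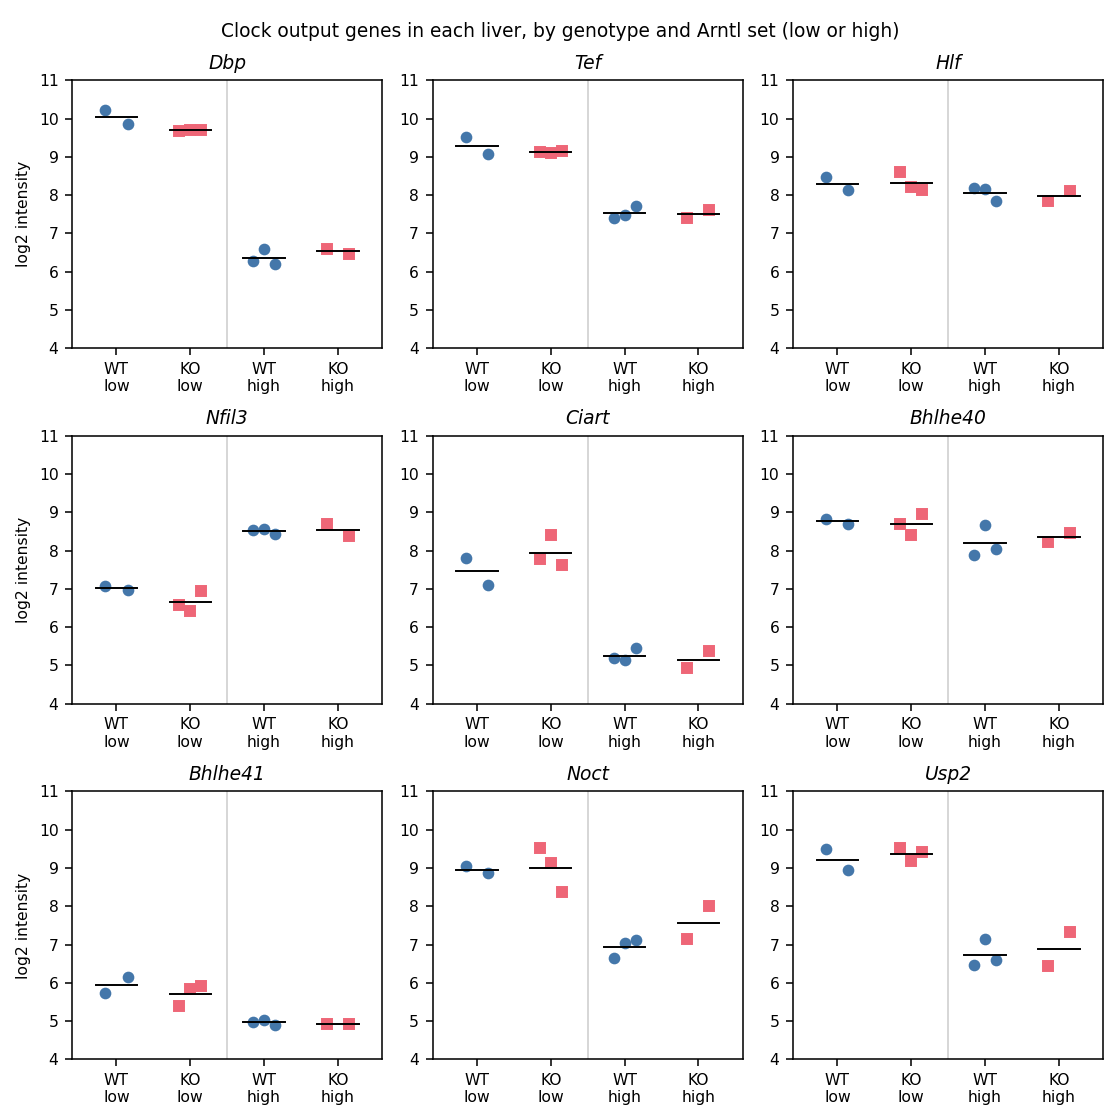
Log2 intensity of each clock output gene in every liver (points), in 4 columns: WT and NML-KO (KO) livers of the Arntl-low set, then of the Arntl-high set; black bars are means. Dbp, Tef, Ciart, Noct and Usp2 stand high and Nfil3 stands low in the Arntl-low livers of both genotypes, while Hlf and Bhlhe40 overlap between the sets.

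The same sets also differed in transcripts outside the clock. Of 54 small nucleolar and small Cajal body RNA genes, 34 (63.0%) were higher in every Arntl-low than in any Arntl-high liver, against 4.88% of all other genes. Their mean log2 level was 7.77 to 7.98 in Arntl-low and 6.81 to 6.96 in Arntl-high livers. Summed intensity of 5 measured bile duct markers, of 6 listed, was 280 to 330 in Arntl-low and 413 to 521 in Arntl-high livers. Sums for every other cell type examined overlapped between the sets. Kupffer cell and macrophage markers, for example, summed to 2139 to 4231 in Arntl-low and 3727 to 6354 in Arntl-high livers. The part of these differences in the members' values was not tested, and the labels do not state hour of dissection, feeding or array batch.

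Across all 10 livers no member differed between genotypes beyond the spread. By limma, 0 of 9 members and 0 of 19935 genes (0%) passed an adjusted p of 0.05, and 0 of 9 members had an unadjusted p below 0.05, as did 2.70% of all genes. Means in NML-KO livers exceeded WT for 8 of the 9, and Nfil3 was the exception. The median difference was 0.24 for the members and -0.0065 over all genes. NML-KO held 3 Arntl-low livers of 5 and WT held 2 of 5, a split that the members share, so nothing is read from that count. Dbp averaged 7.83 ± 2.04 (SD, n = 5) in WT and 8.43 ± 1.73 (SD, n = 5) in NML-KO livers, a difference of 0.61 (SE 1.05; 0.20 without WT 5 and 1.21 without WT 1), which became -0.080 (SE 0.13) with the Arntl set as a term in the model. Nfil3 went from -0.51 (SE 0.53) to -0.17 (SE 0.12) and Noct from 0.69 (SE 0.58) to 0.34 (SE 0.25) in the same way. Without the term, Nfil3 ranged from -0.83 with NML-KO 4 left out to -0.27 with NML-KO 2 left out, and Noct was at 0.41 without WT 3 and 1.01 without WT 1. With that term 4 members were above and 5 below 0, with a median of -0.034 against -0.0092 over all genes; 0 of 9 had an unadjusted p below 0.05, against 4.36% of genes, and 0% of genes passed the adjusted threshold. The labels name separate livers but no litters or cages, so p-values measure the spread between these samples. No member's WT and NML-KO livers were free of overlap over all livers, as was the case for 0.406% of genes.

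Within the Arntl-low livers (2 WT, 3 NML-KO), Dbp and Nfil3 were both lower in NML-KO without passing the adjusted threshold. SEs, intervals and p-values within either set came from a fit of all 10 livers, which share an estimate of each gene's spread. Dbp averaged 10.05 in WT and 9.70 in NML-KO livers, so that NML-KO was at 78.5% of WT (log2 difference -0.35, SE 0.14, 95% confidence interval -0.66 to -0.041). All 3 NML-KO livers lay close together and below both WT livers. Its adjusted p by limma was 0.440 (unadjusted 0.0305), and the difference was -0.17 without WT 1 and -0.53 without WT 2.

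Nfil3 in the same livers averaged 7.02 in WT and 6.65 in NML-KO, where it was at 77.3% of WT (log2 difference -0.37, SE 0.15, interval -0.71 to -0.031). The NML-KO livers again lay below both WT livers, although NML-KO 3 (6.94) came close to WT 2 (6.97). Fat cell markers (4 measured of 5) summed to 439 in WT 2 and to 142 to 181 in the other 9 livers; without WT 2 the Nfil3 difference was -0.42. With every liver its adjusted p by limma was 0.452 (unadjusted 0.0357). These 2 members of 9 were the ones with an unadjusted p below 0.05, both lower, in a contrast where 10.2% of all genes had one and 0% passed the adjusted threshold (23 genes, none of them a member, without WT 1). They were also the 2 members whose genotypes did not overlap, as was so for 20.5% of all genes.

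The other members of the Arntl-low set had intervals that include 0. Ciart had the widest estimate, 0.49 higher in NML-KO (SE 0.28, interval -0.14 to 1.12), with NML-KO 2 above the rest. It was 0.12 without WT 2 and 0.85 without WT 1. With the mean of both Ciart probe sets the difference was 0.34. Bhlhe41 was at -0.23 (SE 0.17), but at -0.027 without WT 2, -0.066 without NML-KO 1 and -0.43 without WT 1. Tef was at -0.16 (SE 0.14), Bhlhe40 at -0.078 (SE 0.23), Hlf at 0.014 (SE 0.18), Noct at 0.053 (SE 0.34) and Usp2 at 0.15 (SE 0.29). The intervals were widest for Noct and Usp2, where NML-KO could lie between 0.605 and 1.78 times WT for Noct and between 0.699 and 1.75 times WT for Usp2.

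Within the Arntl-high livers (3 WT, 2 NML-KO), Noct had the widest difference of the 9. It averaged 6.94 in WT and 7.57 in NML-KO livers, a log2 difference of 0.63 (SE 0.34, interval -0.14 to 1.41), or 155% of WT. Both NML-KO livers lay above all 3 WT livers, which was so in one direction or the other for 19.0% of genes, but NML-KO 4 (7.14) was next to WT 5 (7.13). Without NML-KO 5 the difference was 0.20, and without NML-KO 4 it was 1.06. By limma its unadjusted p was 0.0983 and its adjusted p 1.000. None of the 9 members had an unadjusted p below 0.05, against 2.24% of all genes, and 0% of genes passed the adjusted threshold (24 genes, none a member, without NML-KO 5). Dbp was at 0.19 (SE 0.14), Bhlhe40 at 0.15 (SE 0.23), Usp2 at 0.15 (SE 0.29) and Nfil3 at 0.022 (SE 0.15), while Ciart, Hlf, Bhlhe41 and Tef lay between -0.10 and -0.034.

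**Figure D2:**
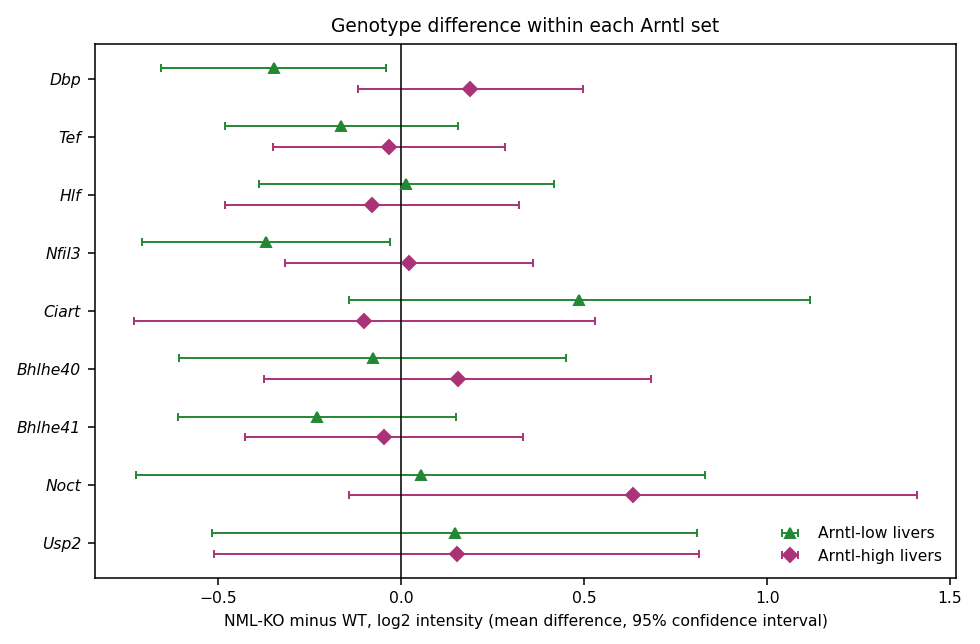
Difference between NML-KO and WT (log2 intensity) for each gene within Arntl-low livers (triangles; 2 WT, 3 NML-KO) and Arntl-high livers (diamonds; 3 WT, 2 NML-KO), with 95% confidence intervals from limma. The intervals of Dbp and Nfil3 in Arntl-low livers lie below 0 and all others include it.

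The span from the Arntl-high to the Arntl-low livers had the same sign in both genotypes for all 9 members. The share of all genes with equal signs was not counted, and clock values made the split, so nothing is read from this. For Dbp the span was 3.70 on the log2 scale (13.0-fold) in WT and 3.16 (8.95-fold) in NML-KO livers. The difference of -0.54 (SE 0.19, interval -0.97 to -0.10) had an unadjusted p of 0.0210 and an adjusted p of 0.742 by limma. This difference was -0.35 without WT 1 and -0.72 without WT 2. Dbp was the 1 member of 9 with an unadjusted p below 0.05 for this comparison, which 6.49% of genes also had, and 0% of genes passed the adjusted threshold (13 genes, none a member, without NML-KO 5, and 11, none a member, without WT 1).

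Noct spanned 2.02 in WT and 1.44 in NML-KO livers (difference -0.58, SE 0.48, and -0.15 without NML-KO 5). Ciart spanned 2.20 and 2.79 (difference 0.59, SE 0.39, and 0.23 without WT 2 and 0.95 without WT 1). With the mean of both Ciart probe sets the difference was 0.46. Nfil3 ran the other way, with -1.49 in WT and -1.88 in NML-KO livers (difference -0.39, SE 0.21; -0.23 with NML-KO 4 left out, -0.55 with NML-KO 5 left out). Usp2 had nearly equal spans, 2.48 in both, and its interval of -0.94 to 0.93 for the difference shows how loosely 10 livers fix it. Tef (1.75 and 1.62), Bhlhe41 (0.97 and 0.79), Bhlhe40 (0.57 and 0.34) and Hlf (0.24 and 0.33) had differences with an SE of 0.20 to 0.33.

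**Figure D3:**
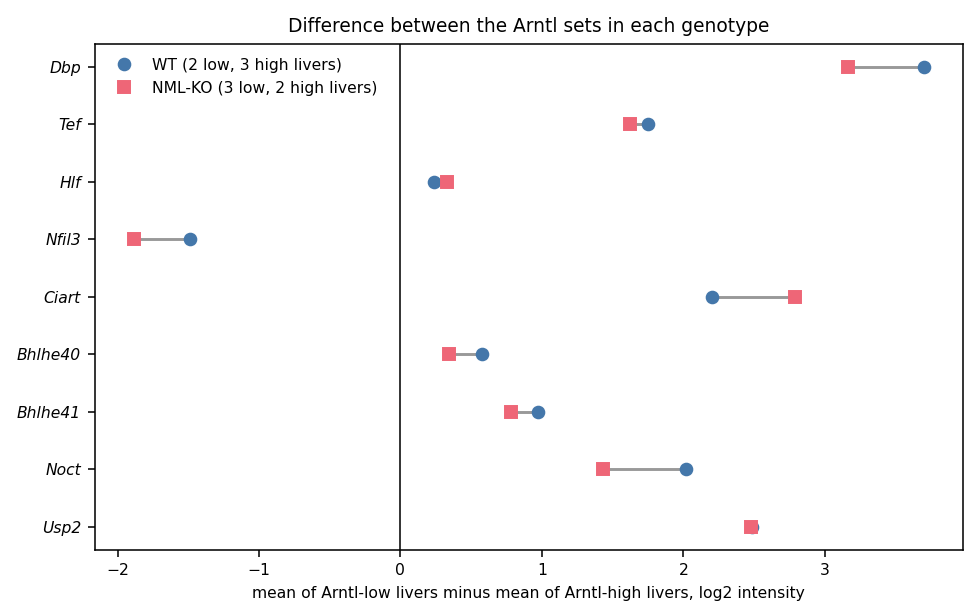
Mean log2 intensity of Arntl-low minus Arntl-high livers for each gene in WT (circles) and NML-KO livers (squares), joined by a line whose length is the difference between genotypes. Dbp has the widest span in both genotypes, Nfil3 is negative in both, and the Usp2 points coincide.

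Patterns over the 10 livers were compared by the root mean square (RMS) difference between log2 values, each gene centred on its own mean. Dbp itself varied with an SD of 1.72 around its mean. The 3 genes nearest to it outside the 9 were Snord57 (0.34), Snora69 (0.37) and the clock repressor gene Per3 (0.41); the first pair are small nucleolar RNAs, which guide chemical modification of ribosomal RNA. Usp2 was the member nearest to Dbp (0.55). For Nfil3 they were Ly6e (0.17), a gene of a membrane-anchored Ly6 protein, Fpgs (0.19), which encodes the enzyme that adds glutamates to folates, and Clpx (0.19), a subunit gene of a mitochondrial protease. For Noct they were Per1 (0.35), a clock repressor gene that also responds acutely to hormones, Pfkfb3 (0.37), a regulator of glycolysis, and Nrg4 (0.43), a secreted ligand of the epidermal growth factor family. These values describe likeness over 2 sets of livers that share their arrays, and the sets dominate every one of them.

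Per1, like Noct, was higher in both NML-KO livers than in all WT livers of the Arntl-high set. In these livers 19% of all genes had no overlap, in either direction. Per1 was at 5.94, 6.26 and 6.10 in WT 3 to 5 and at 6.99 and 7.22 in NML-KO 4 and NML-KO 5. The difference was 1.01 (SE 0.14), with an unadjusted p of 4.97e-05 and an adjusted p of 0.248 by limma. In Arntl-low livers Per1 was at -0.30 (SE 0.14). The comparison between the sets gave -1.31 (SE 0.19), with an unadjusted p of 9.51e-05 and an adjusted p of 0.717 by limma. Per1 was named for its likeness to Noct over the same arrays, so a pattern shared with Noct was favoured by that choice.

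Of the other genes of the pathway, the core clock list had 14 measured members of 17, and by limma with the Arntl set as a term 0 had an unadjusted p below 0.05 in either direction, against 4.36% of all genes. At that level 2 were lower in NML-KO than in WT within Arntl-low livers (10.2% of all genes had such a p in either direction). Within Arntl-high livers 1 was higher in NML-KO (2.24%). In the comparison between the sets, NML-KO minus WT was lower in Arntl-low livers for 3 (6.49%). With the Arntl set as a term the median difference of the list was -0.030. The smallest p values were those of Cry2, a clock repressor gene, at -0.18 (SE 0.089), and Arntl at -0.12 (SE 0.069), whose own level defined the term, so that its difference is a description only. In Arntl-low livers Cry2 was at -0.35 (SE 0.10; adjusted p = 0.351 by limma), with 8.73 and 8.50 in the WT and 8.17, 8.18 and 8.45 in the NML-KO livers.

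Genes listed as targets of the D-box factors had 8 measured members of 11, of which 1 was higher and 1 lower at an unadjusted p below 0.05 with the Arntl set as a term, against 4.36% of all genes. Alas1, the first enzyme of haem synthesis, was 1.03 higher (SE 0.32; adjusted p = 0.992 by limma), with 0.26 in Arntl-low and 1.79 in Arntl-high livers. Nr1i3, which encodes the xenobiotic receptor CAR, was at -0.54 (SE 0.24; adjusted p = 0.992 by limma). Their median was -0.028.

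Deadenylases and their partners had 17 measured members of 17, of which 0 were higher and 1 lower at that level, a share near the 4.36% of all genes: Pan2, the catalytic subunit of the PAN complex, was at -0.13 (SE 0.049; adjusted p = 0.992 by limma), and Cnot8, of the CCR4-NOT complex, was at 0.13 (SE 0.071). Their median was 0.027. Of 11 other rhythmic liver genes 2 were higher and 1 lower, where 4.36% of all genes passed, with a median of 0.061. Coq10b, a coenzyme Q-binding protein gene, was 0.61 higher (SE 0.11; adjusted p = 0.689 by limma), with 0.65 in Arntl-low and 0.56 in Arntl-high livers. Cirbp, a cold-inducible RNA-binding protein gene, was at -0.31 (SE 0.12; adjusted p = 0.992 by limma). No gene of the 4 lists passed the adjusted threshold.

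**Figure D4:**
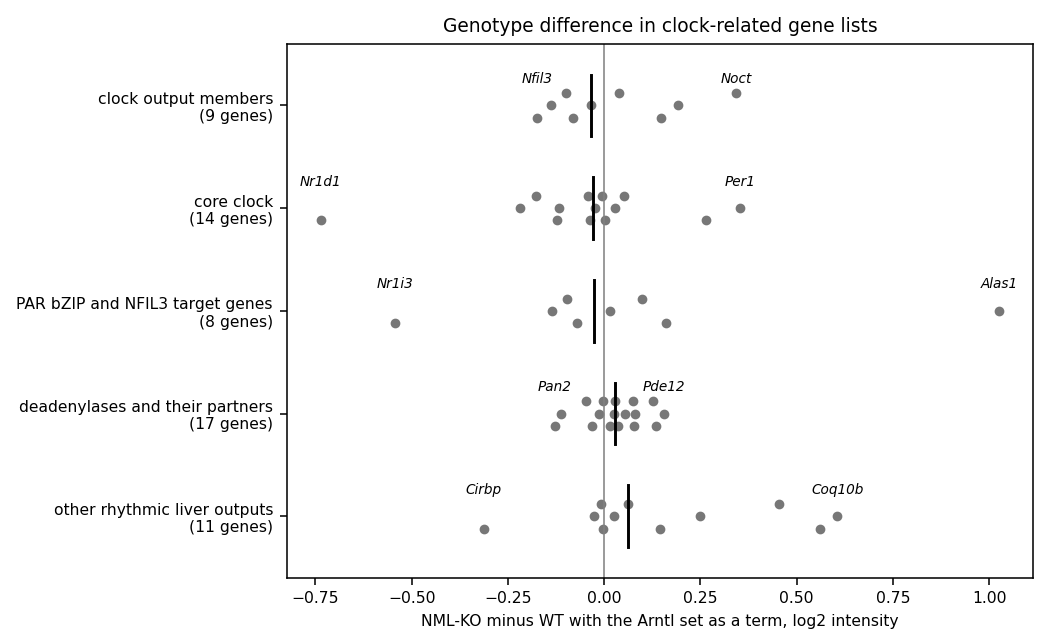
Difference between NML-KO and WT with the Arntl set as a term (log2 intensity) for the 9 clock output genes and the measured genes of 4 lists; each point is a gene, black bars are medians, and the lowest and highest gene of each row are named. Medians lie between -0.034 and 0.061, and Alas1 and Coq10b stand highest in their lists.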

How the data were processed

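Linear intensity values (18.4 to 29834), as deposited by the authors, covered 28815 probe sets on 10 arrays, with median intensities of 62.5 to 66.7. RNA was extracted with Sepazol and biotin-labelled, per the labels' protocols. Per the submitters' processing notes the build was mm8. Background correction and normalization: not given in the sources used here.

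Probe sets with a single gene symbol (21780) were kept, 21689 with symbols updated by gene ID through a RefSeq table (GRCm38.p6), and the probe set with the highest mean stood for each of 19935 genes. Values were taken to log2 without an offset or filter. limma 3.58.1 in R 4.3.3 (lmFit, eBayes) was fitted over all genes, by genotype alone and by genotype and Arntl set (log2 Arntl below or above 7), with p-values adjusted across them by Benjamini-Hochberg and called below 0.05. Confidence intervals are at 95%. The scripts were tested on simulated data. Motifs were counted in a RefSeq promoter table. Members, lists and the likeness rule were chosen with earlier results of these data known. Named besides the members are Rrp8, Arntl, the 2 genes of each list with the smallest unadjusted p with the set term, and the 3 genes most like Dbp, Nfil3 and Noct, leaving out predicted genes.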

Additional observations from a re-analysis of the deposited data

How the results depend on the processing

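Alternatives were quantile normalization, median centring, an offset of 16, the mean of all probe sets, a trended and robust prior, dim genes left out (which drops Bhlhe41), the replicate block, sets from the first principal component (the same livers) and each array left out; no member passed the adjusted threshold in any of them. The count of genes past it over all livers was 0, and 0 to 1 with an array left out (1 without NML-KO 4). Within Arntl-low livers it ran from 0 to 23 with an array left out (23 without WT 1). Within Arntl-high livers it was 3 with the trended prior, 1 with dim genes left out, and 0 to 24 with an array left out (24 without NML-KO 5, 1 without WT 1 or WT 2). For the comparison between sets it ran from 0 to 13 with an array left out (11 without WT 1, 13 without NML-KO 5). With the Arntl set as a term the sign turned for Dbp (-0.080), Tef (-0.099), Hlf (-0.034) and Bhlhe41 (-0.14). With the replicate block it turned for Bhlhe40 in Arntl-high livers (-0.0023) and for Usp2 between the sets (0.11), and no call changed. Deviations of same-numbered WT and NML-KO arrays from their group means correlated at 0.26 to 0.54 in 4 pairs. In the pair numbered 3 the correlation was -0.42. Those 4 pairs each held livers of a single Arntl set, and the pair numbered 3 held both. The correlations thus cannot tell whether equal numbers mark pairs, and the numbers were not taken as pairs. With the replicate block Noct had an unadjusted p by limma of 0.0208 over all livers (0.261 without it), and an adjusted p of 0.9995 in both. Nfil3 had unadjusted p-values by limma of 0.00363 in Arntl-low livers and 0.0113 between the sets (adjusted 0.467 and 0.835). Bhlhe41 had one of 0.0157 in Arntl-low livers (adjusted 0.467). Noct was higher in NML-KO in all 5 same-numbered pairs. The share of all genes that were so was not counted, so nothing is read from that number. The pair numbered 3 set an Arntl-high WT liver (6.65) against an Arntl-low NML-KO liver (8.37), so its difference also holds that between the sets. Usp2 between the sets also turned with quantile normalization (0.0032), median centring (0.0027) and the offset (0.0057). With an array left out, log2 differences that turned sign ran as follows. Over all livers they were Hlf from -0.082 to 0.11, Bhlhe40 from -0.0059 to 0.23 and Bhlhe41 from -0.095 to 0.23. In Arntl-low livers they were Tef from -0.39 to 0.060, Hlf from -0.16 to 0.18, Bhlhe40 from -0.21 to 0.062, Noct from -0.20 to 0.37 and Usp2 from -0.12 to 0.41. In Arntl-high livers they were Tef from -0.13 to 0.063, Hlf from -0.22 to 0.059, Nfil3 from -0.14 to 0.18, Ciart from -0.33 to 0.13, Bhlhe40 from -0.0023 to 0.39 and Usp2 from -0.29 to 0.60. Between the sets they were Tef from -0.35 to 0.094, Hlf from -0.075 to 0.27, Bhlhe41 from -0.39 to 0.020 and Usp2 from -0.45 to 0.44. Of those that kept their sign, Tef over all livers ran from 0.029 (without WT 3) to 0.56 (without WT 1), Ciart from 0.29 (without NML-KO 2) to 1.17 (without NML-KO 4), and Usp2 from 0.33 (without WT 3) to 1.13 (without NML-KO 4). Dbp in Arntl-high livers ran from 0.11 (without WT 5) to 0.31 (without WT 4), and Bhlhe40 between the sets from -0.47 (without WT 4) to -0.076 (without WT 3). The cause was not tested; a lone array left in an arm was assumed to vary like the rest. The scanner background is unknown, which limits dim members.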
